A study of Mus musculus with 12 samples.

Results

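The genes described here are 10 that macrophages use to sense microbes inside the cell and to answer with inflammasome assembly and pyroptosis: Nlrp3, Nlrc4, Aim2, Mefv, Pycard, Casp1, Casp4, Gsdmd, Nod1 and Nod2. They were chosen by name from the 32302 genes and transcripts on the array, and 11 probes matched them by accession. Of these genes, 9 had a signal well above background in at least 1 group and were tested, among 22367 genes kept. RNA came from bone marrow-derived macrophages (BMDMs) of C57BL/6 mice 8 weeks of age, grown from bone marrow for 7 days with 20 ng per ml of M-CSF, the macrophage growth factor. The wild-type (WT) mice were compared with Keap1 flox/flox::LysM-Cre mice (KpCKO), which lose Keap1 in myeloid cells through a Cre recombinase expressed from the lysozyme M locus. Cells of each genotype were left unstimulated (Con), stimulated for 6 h with LPS at 5 ng per ml plus IFNγ at 10 ng per ml (M1), or given 10 ng per ml IL-4 for 6 h (M2). The cells were cultured on 2 occasions, each with 1 WT and 1 KpCKO mouse, which gave 6 groups of 2 arrays. Mice were male in culture 1 and female in culture 2, so culture and sex cannot be told apart.

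Inflammasomes are protein platforms that form in the cytosol when a sensor meets its trigger. NLRP3 answers to potassium loss and membrane damage, NLRC4 to bacterial flagellin and secretion system proteins presented by NAIP partners, AIM2 to double-stranded DNA, and pyrin, the product of Mefv, to the action of certain bacterial toxins. Pycard encodes ASC, the adaptor that links these sensors to caspase-1, which matures IL-1β and IL-18 and cuts gasdermin D, the pore protein encoded by Gsdmd. Mouse Casp4, long called Casp11, encodes a protease that binds LPS in the cytosol and cuts gasdermin D directly. NOD1 and NOD2 recognise fragments of peptidoglycan and signal through the kinase RIPK2 to NF-κB rather than through an inflammasome. KEAP1 marks the transcription factor NRF2 for degradation, so its loss leaves NRF2 active. In resting macrophages, priming by LPS is known to raise Nlrp3 and Casp4 RNA before any inflammasome is triggered.

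On each 1-colour array the 75th percentile of the intensity lay between 548 and 1166, and between 59.3% and 71.4% of probes were well above background. Levels below are log2 intensities relative to the 75th percentile of the same array, so a level of 0 equals that percentile and a difference of 1 is a doubling. The replicate arrays of a group correlated at r between 0.986 and 0.995 across genes. The 4 arrays of a stimulus shared 1 slide. Genotype comparisons therefore stayed inside a slide, whereas a response to M1 or M2 and a difference between slides cannot be told apart. The Keap1 level was 3.26 and 3.16 in WT Con against 1.79 and 1.71 in KpCKO Con, 4.28 and 4.80 in WT M1 against 2.61 and 3.04 in KpCKO M1, and 3.07 and 2.85 in WT M2 against 1.37 and 0.94 in KpCKO M2. All KpCKO arrays were thus below the WT arrays of their stimulus, and over the 3 stimuli the Keap1 level was lower by 1.66 on the log2 scale (SE 0.14, limma adjusted p = 0.000704). The NRF2 target Nqo1 was higher by 3.42 (SE 0.06). Of 7 macrophage markers measured, 7 were well above background on all 12 arrays, and their summed linear level was between 405 and 1041 times the 75th percentile. That sum was lower in KpCKO than in WT for each stimulus: 405 and 469 against 583 and 639 in Con, 560 and 661 against 833 and 1041 in M1, and 414 and 452 against 488 and 545 in M2. Over the 3 stimuli 4 of the 7 markers, Adgre1, Lyz2, Cd14 and Fcgr1, were lower in KpCKO and none was higher. Lyz2 is the gene of the lysozyme M locus that carries Cre in KpCKO mice, and it is part of the sum. Its lower level and an effect of Cre at that locus cannot be told apart. The summed level of the neutrophil markers was between 3.15 and 16.6. It was between 13 and 16.6 in culture 1 and between 3.15 and 9.77 in culture 2. That of 5 dendritic cell markers was between 0.31 and 2.32 and highest in the M1 groups, and the neutrophil marker Elane and the B cell marker Ms4a1 were not well above background on any array. These levels move with the genotype, the stimulus or the culture, and their part in the differences given below was not tested. In RNA of a whole culture, fewer cells of a type and less RNA per cell cannot be told apart.

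M1 stimulation raised 8 of the 9 members tested in WT cells, from 3.08-fold for Pycard to 25.9-fold for Nod1. Nlrc4 fell 1.47-fold. In KpCKO cells all 9 rose, from 1.48-fold for Nlrc4 to 26.3-fold for Casp4. The members called were thus 9 of 9 in each genotype, while M1 called 63.2% of all genes tested in WT and 50.2% in KpCKO, and a call by itself is therefore common here. The median M1 change of the 9 members was 3.75 in WT and 3.67 in KpCKO on the log2 scale, beside a median over all genes of 0.13 and 0.03. By size of the rise in WT, Nod1 was number 269, Mefv 287, Nod2 305, Nlrp3 420 and Casp4 501 of 22356 genes. Gsdmd was number 1569, Casp1 1658 and Pycard 2304, and Nlrc4, which fell, was number 16140. Both genotypes were compared with Con arrays of their own, and the plot of levels by array shows the separation of M1 from the other stimuli.

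**Figure D1:**
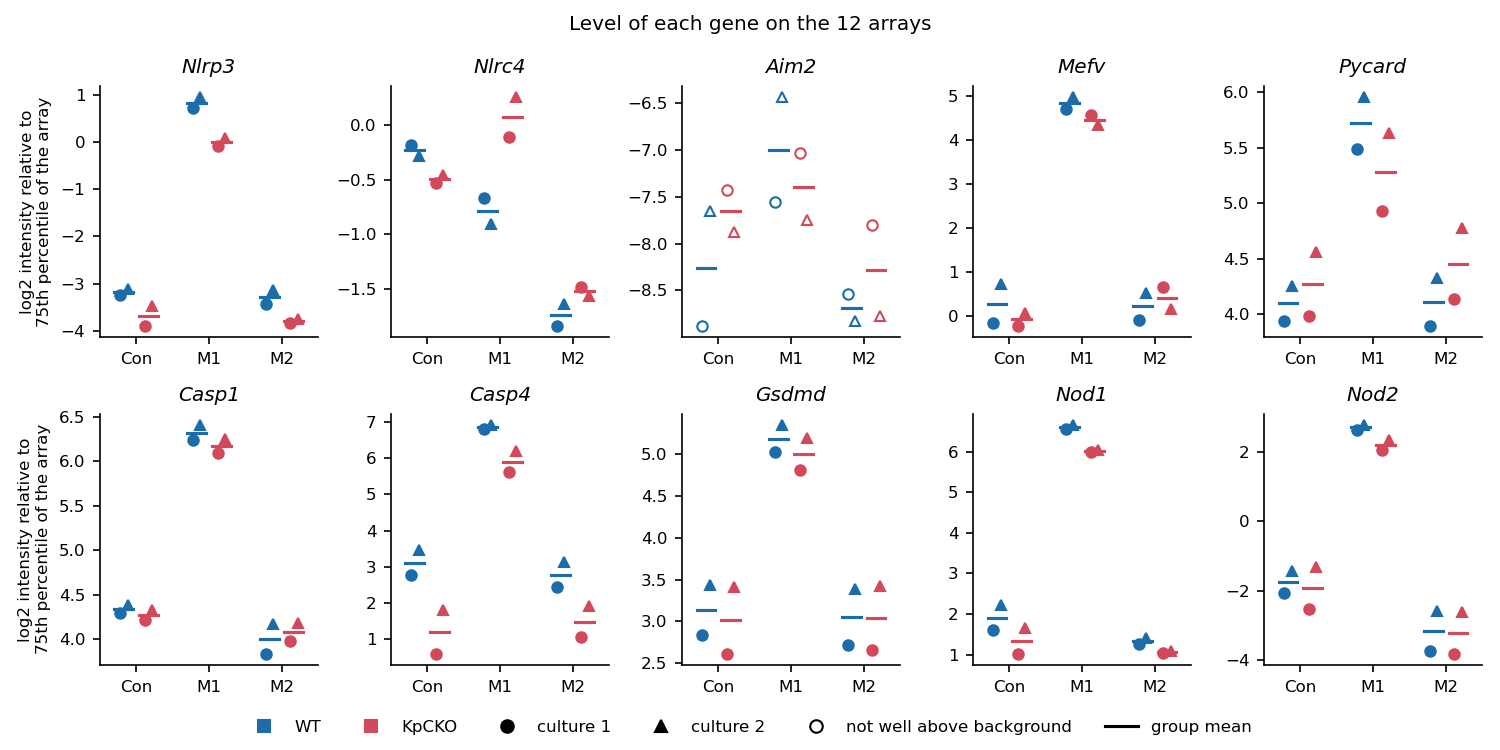
Level of each member on each array (y axis, log2 intensity relative to the 75th percentile of the array) by stimulus (x axis), with WT in blue, KpCKO in red, circles for culture 1, triangles for culture 2, open symbols for a signal not well above background and a short line for the mean of a group. The M1 arrays stand above the Con and M2 arrays for 8 members, Nlrc4 is lowest in M2, Casp4 is lower in KpCKO in each stimulus, and the 12 symbols of Aim2 are open.

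Among the sensors, Nlrp3 had a level of −3.24 and −3.10 in WT Con against −3.89 and −3.46 in KpCKO Con, 0.71 and 0.94 in WT M1 against −0.09 and 0.09 in KpCKO M1, and −3.42 and −3.13 in WT M2 against −3.84 and −3.76 in KpCKO M2. The 4 M1 arrays were the highest, and within M1 both WT arrays were above both KpCKO arrays. The M1 rise was 4.0 (SE 0.11, 16.0-fold, limma adjusted p = 3.2e-06) in WT and 3.67 (12.8-fold, adjusted p = 6e-06) in KpCKO.

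Mefv, the gene of pyrin, had a level of −0.16 and 0.73 in WT Con against −0.21 and 0.08 in KpCKO Con, 4.72 and 4.98 in WT M1 against 4.58 and 4.34 in KpCKO M1, and −0.07 and 0.52 in WT M2 against 0.67 and 0.17 in KpCKO M2. Con and M2 levels overlapped in WT, in KpCKO both M2 arrays were above both Con arrays, and M1 levels lay far above both. The rise was 4.56 (SE 0.32, 23.6-fold, limma adjusted p = 3.78e-05) in WT and 4.52 (23.0-fold) in KpCKO.

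Nlrc4, the sensor paired with the NAIP proteins, behaved unlike the other sensors. Its level was −0.18 and −0.28 in WT Con against −0.53 and −0.46 in KpCKO Con, −0.67 and −0.90 in WT M1 against −0.11 and 0.25 in KpCKO M1, and −1.84 and −1.64 in WT M2 against −1.48 and −1.57 in KpCKO M2. WT M1 was below WT Con, KpCKO M1 was above KpCKO Con, and the 4 M2 arrays were the lowest. The M1 change was −0.56 (SE 0.16, limma adjusted p = 0.0174) in WT and 0.57 (adjusted p = 0.0204) in KpCKO. The WT fall no longer passed without WT Con replicate 1 (−0.47, adjusted p = 0.104) or without WT M1 replicate 2 (−0.39, adjusted p = 0.109), and with a normexp background correction it was −0.30 (adjusted p = 0.155). The KpCKO rise of Nlrc4 no longer passed without KpCKO Con replicate 1 (0.54, adjusted p = 0.0903), KpCKO Con replicate 2 (0.59, adjusted p = 0.0789) or KpCKO M1 replicate 2 (0.37, adjusted p = 0.129).

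Aim2, the DNA sensor, gave a signal not well above background on any of the 12 arrays, with intensities between 2.21 and 6.93 that carry no order. No level, fold or test is given for it.

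The adaptor gene Pycard had a level of 3.94 and 4.26 in WT Con against 3.98 and 4.56 in KpCKO Con, 5.49 and 5.96 in WT M1 against 4.94 and 5.63 in KpCKO M1, and 3.90 and 4.32 in WT M2 against 4.13 and 4.78 in KpCKO M2. Culture 2 was above culture 1 in each group, and the M1 arrays were the highest in both cultures. Pycard rose by 1.62 (SE 0.12, 3.08-fold, limma adjusted p = 4.36e-05) in WT and by 1.01 (2.02-fold, adjusted p = 0.000513) in KpCKO, the smallest of the M1 rises in WT.

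Among the proteases, Casp1 had a level of 4.29 and 4.39 in WT Con against 4.22 and 4.32 in KpCKO Con, 6.23 and 6.40 in WT M1 against 6.09 and 6.25 in KpCKO M1, and 3.84 and 4.17 in WT M2 against 3.97 and 4.19 in KpCKO M2. The WT and KpCKO arrays of a stimulus overlapped, and M1 stood apart with a rise of 1.98 (SE 0.10, 3.94-fold, limma adjusted p = 9.89e-06) in WT and 1.90 (3.74-fold) in KpCKO.

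Casp4, the LPS-binding protease, had a level of 2.78 and 3.45 in WT Con against 0.60 and 1.79 in KpCKO Con, 6.82 and 6.92 in WT M1 against 5.61 and 6.21 in KpCKO M1, and 2.43 and 3.12 in WT M2 against 1.05 and 1.91 in KpCKO M2. In every stimulus both KpCKO arrays were below both WT arrays. The order of the group means ran from WT M1 through KpCKO M1, WT Con and WT M2 to KpCKO M2 and KpCKO Con, and the last neighbours in that order, like WT Con and WT M2, overlapped. The M1 rise was 3.75 (SE 0.23, 13.5-fold, limma adjusted p = 2.25e-05) in WT and 4.72 (26.3-fold, adjusted p = 1.83e-05) in KpCKO, which made Casp4 number 172 of 22362 genes by rise in KpCKO.

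The pore gene Gsdmd had a level of 2.83 and 3.44 in WT Con against 2.62 and 3.41 in KpCKO Con, 5.02 and 5.35 in WT M1 against 4.81 and 5.20 in KpCKO M1, and 2.72 and 3.38 in WT M2 against 2.65 and 3.42 in KpCKO M2. Its probe was printed repeatedly, with 8 to 10 usable spots on an array whose coefficient of variation was between 3.2% and 7.46%. Gsdmd rose by 2.05 (SE 0.14, 4.14-fold, limma adjusted p = 3.69e-05) in WT and by 1.99 (3.97-fold) in KpCKO, and the genotypes overlapped in each stimulus.

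Of the peptidoglycan sensors, Nod1 had a level of 1.62 and 2.21 in WT Con against 1.03 and 1.67 in KpCKO Con, 6.56 and 6.65 in WT M1 against 6.00 and 6.05 in KpCKO M1, and 1.26 and 1.41 in WT M2 against 1.04 and 1.09 in KpCKO M2. Its Con levels overlapped between the genotypes, and its M1 levels did not. Its rise in WT was the largest of the 9 members, 4.70 (SE 0.18, 25.9-fold, limma adjusted p = 5.62e-06), beside 4.68 (25.6-fold) in KpCKO. Nod2 had a level of −2.08 and −1.43 in WT Con against −2.52 and −1.33 in KpCKO Con, 2.65 and 2.77 in WT M1 against 2.06 and 2.35 in KpCKO M1, and −3.74 and −2.60 in WT M2 against −3.82 and −2.63 in KpCKO M2. Thus M1 raised Nod2 by 4.46 (22.1-fold) in WT and 4.13 (17.5-fold) in KpCKO, while its M2 arrays were the lowest of their genotype and culture.

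Promoter sequences of RefSeq (GRCm38.p6) are shown for 4 of the members that changed with M1, because NF-κB and interferon-driven factors are known to act at such genes and because the members differ in the letters present. The 250 bases before an annotated start were searched on both strands for GGGNNTTCC and GGGANTTTC (κB-like), TTCNNNGAA (the interferon gamma activated site), GAAANNGAA (paired interferon factor element), and TGACNNNGC and TGAGNNNGC (cores of the antioxidant element that NRF2 binds). Overlapping matches were allowed. Of 32851 promoters of that length, 4.98% held GGGNNTTCC, 0.941% GGGANTTTC, 7.02% TTCNNNGAA, 7.13% GAAANNGAA, 10.2% TGACNNNGC and 14.4% TGAGNNNGC. Capitals mark the matches, all of them to GGGNNTTCC or its reverse complement. The windows lie at chr9:5308599-5308848 on the plus strand for Casp4, chr11:59541319-59541568 on the plus strand for the first start of Nlrp3, chr8:88647097-88647346 on the plus strand for Nod2, and chr17:74459109-74459358 on the minus strand for Nlrc4.
Casp4: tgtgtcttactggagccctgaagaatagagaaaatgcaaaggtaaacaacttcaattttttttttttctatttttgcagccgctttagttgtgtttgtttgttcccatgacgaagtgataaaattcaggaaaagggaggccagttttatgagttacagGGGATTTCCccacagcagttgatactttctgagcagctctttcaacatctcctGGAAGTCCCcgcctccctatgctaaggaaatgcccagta
Nlrp3: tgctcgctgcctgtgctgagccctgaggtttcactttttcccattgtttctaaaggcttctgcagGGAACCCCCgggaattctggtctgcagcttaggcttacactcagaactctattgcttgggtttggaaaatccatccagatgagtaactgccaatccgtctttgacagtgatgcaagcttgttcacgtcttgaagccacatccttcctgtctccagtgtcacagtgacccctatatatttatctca
Nod2: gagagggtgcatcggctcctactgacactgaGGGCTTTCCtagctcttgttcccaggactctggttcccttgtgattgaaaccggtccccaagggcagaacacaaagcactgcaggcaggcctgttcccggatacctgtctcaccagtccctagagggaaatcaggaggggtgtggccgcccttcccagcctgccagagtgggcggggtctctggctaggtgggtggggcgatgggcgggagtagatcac
Nlrc4: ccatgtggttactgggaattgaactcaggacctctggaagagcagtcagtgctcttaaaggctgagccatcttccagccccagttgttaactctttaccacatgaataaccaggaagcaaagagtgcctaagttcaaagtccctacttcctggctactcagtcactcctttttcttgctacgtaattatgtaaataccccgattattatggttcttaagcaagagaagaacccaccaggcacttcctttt

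Casp4 held the κB-like letters at 2 places, GGGATTTCC from −92 to −84 and GGAAGTCCC from −39 to −31 counted from the start. Nlrp3 held GGAACCCCC from −185 to −177 at its first start, and GGGCTTTCC from −94 to −86 with GCTTTCTCA, a reverse match to TGAGNNNGC, from −55 to −47 at its second. Nod2 held GGGCTTTCC from −219 to −211. Nod1 held GCACTCTCA, a reverse match to TGAGNNNGC, from −65 to −57 at 1 start and TTCCAGGAA, the gamma activated letters, from −193 to −185 at the other. In the windows of Nlrc4, Mefv, Pycard and Casp1 none of the 6 motifs was found. Aim2, whose signal was not well above background, held GGGACTTTC, a match to GGGANTTTC, from −154 to −146 and GCGGTCTCA, a reverse match to TGAGNNNGC, from −72 to −64. These are matches of letters in a short window, and binding was not measured on these arrays.

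M2 stimulation changed few members. In WT 2 of 9 fell and none rose, beside 16.8% of all genes called, and in KpCKO 2 of 9 fell, beside 10.2% of all genes called. The genes were Nlrc4 and Nod2 in both genotypes. Nlrc4 fell by 1.51 on the log2 scale (2.84-fold, limma adjusted p = 0.00216) in WT and by 1.03 (2.04-fold, adjusted p = 0.0124) in KpCKO. Nod2 fell by 1.41 (2.66-fold, adjusted p = 0.0225) in WT and by 1.30 (2.46-fold, adjusted p = 0.0401) in KpCKO. For both genes the M2 arrays lay below the Con arrays of the same genotype without overlap. The nearest members that did not pass in WT were Casp1 at −0.34 (adjusted p = 0.0555) and Nod1 at −0.58 (adjusted p = 0.0766). The WT call of Nod2 was lost when any of the 4 arrays in it was left out, with adjusted p between 0.0722 for WT M2 replicate 2 and 0.13 for WT M2 replicate 1, and 0.127 and 0.103 without WT Con replicates 1 and 2. In KpCKO the call of Nod2 was lost without any WT or KpCKO array of Con or M2 (adjusted p between 0.0612 and 0.212), and that of Nlrc4 without KpCKO Con replicate 1 or 2 (0.0663 and 0.0866) or KpCKO M2 replicate 1 or 2 (0.0506 and 0.0823).

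**Figure D2:**
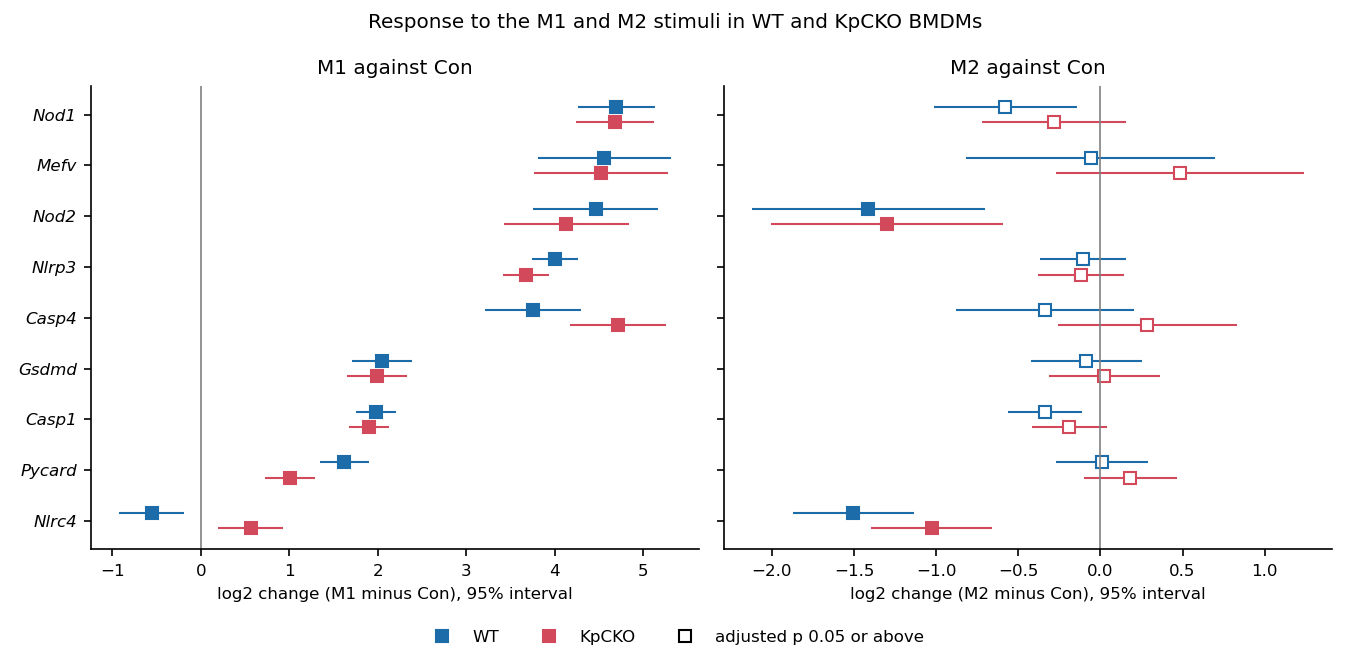
Log2 change of each member tested (y axis) from Con to M1 and from Con to M2 (x axis), in WT and KpCKO, with bars for the 95% interval of limma's fit and open symbols where the adjusted p was 0.05 or more. The M1 changes of 8 members lie between 1.01 and 4.72 in both genotypes, Nlrc4 lies at −0.56 in WT and 0.57 in KpCKO, and only Nlrc4 and Nod2 are filled for M2.

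Between the genotypes, Casp4 was the member with the largest difference: its RNA was lower in KpCKO in each stimulus. Over the 3 stimuli Casp4, Nlrp3 and Nod1 were lower in KpCKO, that is 3 of 9 members and none higher, beside 17.2% of all genes called. Casp4 was lower by 2.62-fold (log2 difference −1.39, SE 0.13, 95% interval −1.71 to −1.08, limma adjusted p = 0.00117), Nlrp3 by 1.53-fold (−0.62, SE 0.06, interval −0.77 to −0.47, adjusted p = 0.00164) and Nod1 by 1.39-fold (−0.47, SE 0.11, interval −0.73 to −0.22, adjusted p = 0.0267). By culture the differences were −1.59 and −1.19 for Casp4, −0.62 and −0.61 for Nlrp3, and −0.46 and −0.49 for Nod1. Each genotype had 2 mice, and the model holds no term for the mouse. The 3 arrays of a mouse count as independent in every value over the 3 stimuli, so its SE and p do not measure the spread between mice. The genotype comparisons within a stimulus take their spread from the same fit, so this limit holds for their SE and p too. Casp4 and Nlrp3 passed under 22 of 22 alternative settings, whereas Nod1 passed under 12 of 22. The call of Nod1 was lost without WT Con replicate 2, KpCKO Con replicate 1, WT M1 replicate 1, KpCKO M1 replicate 2, WT M2 replicate 1 or 2, or KpCKO M2 replicate 2, with adjusted p between 0.0533 and 0.082. It was also lost with quantile normalization, with a normexp background correction and without culture in the model.

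Unstimulated, 1 of 9 members differed, beside 2.21% of all genes. Casp4 was 3.78-fold lower in KpCKO Con (log2 difference −1.92, SE 0.23, interval −2.46 to −1.38, limma adjusted p = 0.0112), by −2.18 in culture 1 and −1.66 in culture 2. The call was lost without WT Con replicate 1 (adjusted p = 0.103), WT Con replicate 2 (0.0886) or KpCKO Con replicate 1 (0.0725), with a Casp4 difference between −1.93 and −1.62. Nlrp3 stood at −0.50 (adjusted p = 0.0819) and Nod1 at −0.57 (adjusted p = 0.222).

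With M1, 4 of 9 members differed, 3 lower and 1 higher in KpCKO, beside 16.0% of all genes. Nlrp3 was 1.78-fold lower (log2 difference −0.83, SE 0.11, limma adjusted p = 0.0066), by −0.80 and −0.86 in the 2 cultures. Casp4 was 1.94-fold lower (−0.96, SE 0.23, adjusted p = 0.0362), by −1.21 and −0.71. Nlrc4 was 1.81-fold higher (0.86, SE 0.16, adjusted p = 0.0169), by 0.56 and 1.16, and its KpCKO arrays lay above its WT arrays. Pycard was 1.36-fold lower (−0.44, SE 0.12, adjusted p = 0.0485), by −0.56 and −0.32, although its WT and KpCKO arrays overlapped because culture 2 was above culture 1 in both genotypes. Pycard was measured by a second probe, which gave −0.42 (adjusted p = 0.0394). With quantile normalization the Pycard difference was −0.20 (adjusted p = 0.323), and the call was lost without any 1 of the 12 arrays (adjusted p between 0.06 and 0.225). The Casp4 call in M1 was lost without any 1 of 9 arrays, all except KpCKO Con replicates 1 and 2 and WT M1 replicate 2 (adjusted p between 0.0568 and 0.136), and without WT M1 replicate 1 its difference was −0.61. The Nlrc4 call was lost without WT M1 replicate 2 (0.70, adjusted p = 0.0863) or KpCKO M1 replicate 2 (0.66, adjusted p = 0.0529). With a normexp background correction, or with only the groups compared, no member was called with M1, Nlrp3 included. The M1 arrays differed in overall scaling: of the genes called over the whole array 1657 of 3578 were higher in KpCKO here, against 2030 of 3382 with quantile normalization.

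With M2, 1 of 9 members differed, beside 1.93% of all genes. Casp4 was 2.46-fold lower in KpCKO (log2 difference −1.30, SE 0.23, limma adjusted p = 0.0449), by −1.38 and −1.21 in the 2 cultures. The call was lost without any 1 of 8 arrays, which were WT Con replicates 1 and 2, KpCKO M1 replicates 1 and 2 and all 4 M2 arrays (adjusted p between 0.0774 and 0.253), with a Casp4 difference between −1.40 and −1.19. Nlrp3 stood at −0.52 (adjusted p = 0.0824) and both its KpCKO arrays were below both WT arrays.

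**Figure D3:**
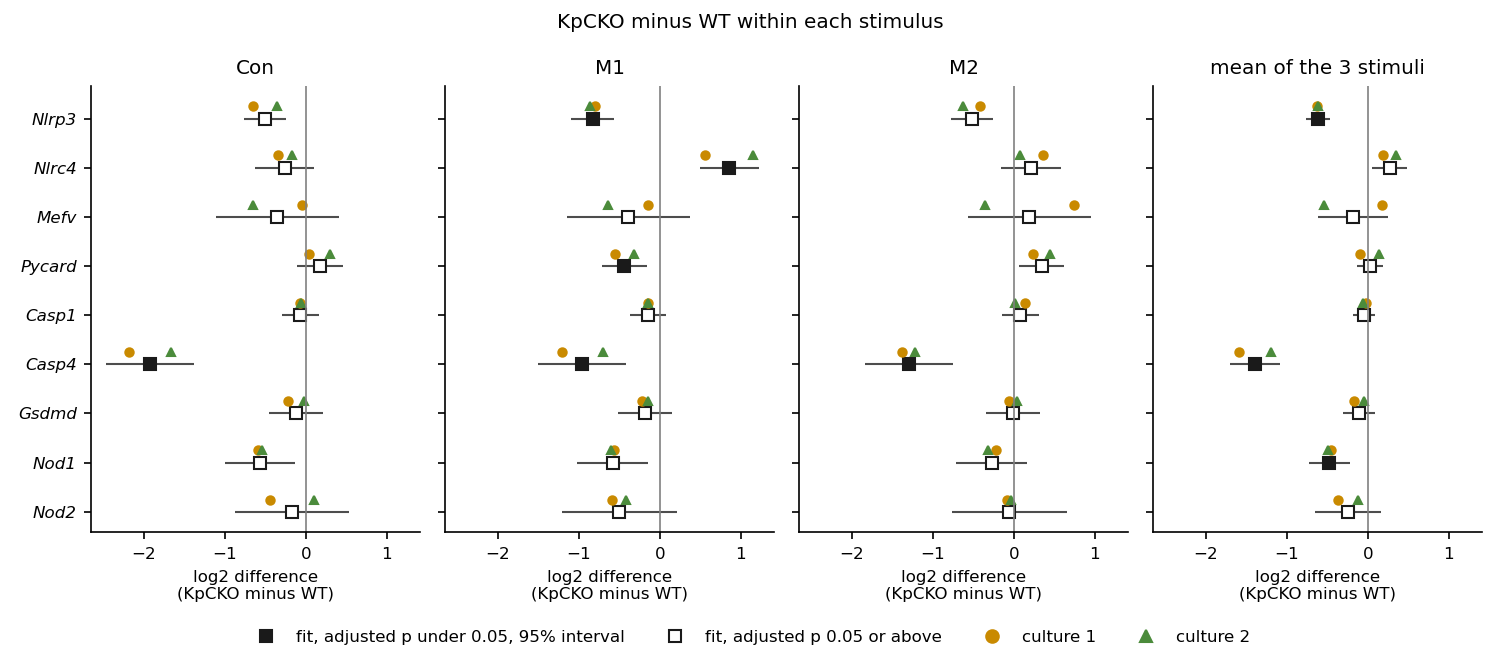
Difference of each member tested between KpCKO and WT (x axis, log2) in Con, M1, M2 and as the mean of the 3 stimuli, with a black square for limma's value, a bar for its 95% interval, an orange circle for culture 1 and a green triangle for culture 2. Casp4 is below 0 in all 4 panels, from −1.92 in Con to −0.96 in M1, Nlrp3 lies between −0.83 and −0.50, and the intervals of Casp1 and Gsdmd for the mean of the 3 stimuli include 0.

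The other 6 members tested did not pass over the 3 stimuli. The genotype difference of Casp1 was −0.05 (95% interval −0.18 to 0.09) and that of Gsdmd −0.11 (−0.30 to 0.09). The interval was −0.62 to 0.25 for Mefv (−0.18), −0.65 to 0.17 for Nod2 (−0.24), −0.14 to 0.19 for Pycard (0.03) and 0.06 to 0.48 for Nlrc4 (0.27, limma adjusted p = 0.0844). A mean over stimuli can hide opposite signs: Pycard stood at 0.17 in Con, −0.44 with M1 and 0.34 with M2, and of these 6 Pycard and Nlrc4 were called with M1.

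The size of the M1 response was compared between the genotypes directly. By limma 0 of 9 members passed, beside 0.0716% of all genes, and 3 of 9 had an unadjusted p under 0.05, as did 3662 of 22354 genes. Nlrc4 had a difference of 1.12 (SE 0.22, adjusted p = 0.124), Casp4 of 0.96 (SE 0.32, adjusted p = 0.241) and Pycard of −0.61 (SE 0.17, adjusted p = 0.182). For the M2 response 0 of 9 passed, beside 0.00894% of all genes, and 0 of 9 had an unadjusted p under 0.05. The deviation of Casp4 was therefore not shown to depend on the stimulus, although its log2 difference was −1.92 in Con and −0.96 in M1.

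The wider pathway was followed in 4 lists of named genes. Of the other sensors and triggers 14 of 17 were tested, of the output of pyroptosis 10 of 10, and of NOD signalling 16 of 18. Of inhibitors and other regulators, called inhibitors below for short, 8 of 10 were tested. Nlrp1b, Nlrp6, Card9, Nlrc3, Pydc3 and Pydc4 had no matching probe and were not analysed here. With M1 in WT, 4 of the sensors and triggers rose and 6 fell, 7 of the output genes rose and 2 fell, 10 of the NOD signalling genes rose and 3 fell, and 7 of the inhibitors rose and 1 fell. Of all genes 34.5% rose and 28.7% fell. In KpCKO the counts were 4 and 6, 7 and 2, 10 and 2, and 6 and 0, beside 24.8% and 25.4% of all genes. The median M1 change in WT was −0.18 for the sensors and triggers, 3.04 for the output genes, 1.21 for NOD signalling and 1.46 for the inhibitors, beside 0.13 for all genes.

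The members of the lists with the largest M1 changes in WT included P2rx7, the ATP-gated channel upstream of NLRP3, which fell by 3.33 on the log2 scale, and Ifi204, an AIM2-like DNA sensor, which rose by 3.17. In the output list Il1a rose by 8.90 from intensities of 12.5 and 12.6 in WT Con, and by 6.18 with a normexp background correction, so the size of its rise depends on the background. Il1rn, the IL-1 receptor antagonist, rose by 7.13, Il1b by 6.52 and Il18bp, which neutralises IL-18, by 3.69. In NOD signalling the ubiquitin-editing enzyme Tnfaip3 rose by 5.19, Nlrc5 by 5.06, Ripk2 by 3.66 and the ubiquitin ligase Birc3 by 3.43. Of the inhibitors Serpinb1a, which restrains caspase-1, rose by 4.65 and Serpinb9, a granzyme B inhibitor, by 4.36.

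Between the genotypes, the list gene with the largest increase in KpCKO among those that passed was Panx1, the channel that releases ATP. Its level was 2.97 and 3.02 in WT Con against 5.60 and 5.35 in KpCKO Con, 3.39 and 3.65 in WT M1 against 6.18 and 6.04 in KpCKO M1, and 2.45 and 2.56 in WT M2 against 4.75 and 4.30 in KpCKO M2. All 6 KpCKO arrays were above all 6 WT arrays, and over the 3 stimuli the difference was 2.36 (SE 0.10, 5.15-fold, limma adjusted p = 4.87e-05). Naip2, the NLRC4 partner that binds the rod protein of bacterial secretion systems, was also higher, with levels of 2.58 and 2.70 in WT Con against 2.96 and 3.25 in KpCKO Con, 2.78 and 2.66 in WT M1 against 3.41 and 3.40 in KpCKO M1, and 2.01 and 2.18 in WT M2 against 2.25 and 2.47 in KpCKO M2. The KpCKO arrays of Naip2 were above the WT arrays of each stimulus, and the difference over the 3 stimuli was 0.47 (adjusted p = 0.00634). The Naip genes are near copies of one another, so its probe may also read another copy. Ifi204 (−0.77, adjusted p = 0.0161) and the apoptosis protease gene Casp8 (−0.45, adjusted p = 0.0112) were lower. Over the 3 stimuli 2 of 14 sensors and triggers were thus higher and 2 lower, a share near that of all genes, of which 8.61% were higher and 8.55% lower.

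The output genes Il1b and Il1a were lower in KpCKO with M1. Il1b had levels of 0.85 and 2.76 in WT Con against −2.15 and −0.12 in KpCKO Con, 7.78 and 8.88 in WT M1 against 4.42 and 6.31 in KpCKO M1, and 0.35 and 2.40 in WT M2 against −2.48 and −0.73 in KpCKO M2. Within each stimulus KpCKO was below WT, and the difference was nearly the same in Con (−2.95), M1 (−2.96) and M2 (−2.99), so that the M1 rise was 6.52 in WT and 6.50 in KpCKO. Over the 3 stimuli Il1b was 7.81-fold lower (SE 0.13 on the log2 scale, limma adjusted p = 4.89e-05). Il1a instead had levels of −6.51 and −6.35 in WT Con against −6.18 and −6.68 in KpCKO Con, 2.31 and 2.62 in WT M1 against −0.56 and −0.82 in KpCKO M1, and −5.12 and −4.82 in WT M2 against −5.75 and −6.33 in KpCKO M2. Its Con arrays overlapped and its M1 arrays differed by 3.15 (8.88-fold lower in KpCKO, adjusted p = 0.00121), with a difference in the M1 response of −3.15 (adjusted p = 0.0504). The Con intensities of Il1a lay near the background, at 12.5 and 12.6 in WT and 14.8 and 9.76 in KpCKO. A genotype difference in Con could be missed there, so the size of the difference in response depends on the background. Il1rn was lower over the 3 stimuli (−1.55, adjusted p = 0.00318) and Ninj1, whose protein ruptures the membrane of dying cells, was higher (0.88, adjusted p = 0.0272). With M1 alone Il1rn was lower as well (−1.92, adjusted p = 0.0152).

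In NOD signalling no gene was higher in KpCKO and 3 of 16 were lower with M1, beside 7.41% of all genes higher and 8.59% lower: Ripk2, the kinase shared by NOD1 and NOD2, Birc2, a ubiquitin ligase of the same complex, and Nlrc5, the activator of MHC class I genes. Ripk2 had levels of −2.62 and −2.67 in WT Con against −2.50 and −2.67 in KpCKO Con, 0.98 and 1.05 in WT M1 against −0.01 and 0.11 in KpCKO M1, and −0.91 and −1.24 in WT M2 against −0.83 and −1.16 in KpCKO M2. The genotypes overlapped in Con and M2 and did not in M1, where KpCKO was 1.96-fold lower (−0.97, SE 0.14, limma adjusted p = 0.0091). Unlike Nod1 and Nod2, Ripk2 rose with M2 as well, by 1.57 in WT (adjusted p = 0.0014) and 1.59 in KpCKO (adjusted p = 0.0022). Birc2 was lower by 0.62 (−0.62, adjusted p = 0.026) and Nlrc5 by 0.74 (−0.74, adjusted p = 0.0286). Over the 3 stimuli 5 of 16 were lower, beside 8.55% of all genes. Of these 5, Birc3 stood at −0.56 (adjusted p = 0.0165) and the others, Birc2, Tab2, Map3k7 and Erbin, between −0.35 and −0.24.

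In the list of inhibitors and regulators, the regulator gene Pstpip1, whose protein binds pyrin, had levels of 2.15 and 2.75 in WT Con against 2.92 and 3.33 in KpCKO Con, 0.56 and 1.01 in WT M1 against 2.45 and 2.60 in KpCKO M1, and 1.5 and 1.60 in WT M2 against 3.23 and 2.55 in KpCKO M2. It was higher in KpCKO within each stimulus, and the difference was 1.74 with M1 (SE 0.29, limma adjusted p = 0.013) and 1.25 over the 3 stimuli (adjusted p = 0.00393). Serpinb9 (0.92, adjusted p = 0.00325) and Card19 (0.56, adjusted p = 0.00728) were higher over the 3 stimuli as well. Serpinb1a (−1.40, adjusted p = 0.0447), the interferon-induced Trim30a (−1.26, adjusted p = 0.0451) and the kinase gene Pkn2 (−0.51, adjusted p = 0.0301) were lower with M1. Of the 8 inhibitors and regulators tested, 1 was thus higher and 3 lower with M1, beside 7.41% and 8.59% of all genes. Over the 3 stimuli 3 were higher and 1, Trim30a, lower, beside 8.61% and 8.55% of all genes. The median genotype difference with M1 was 0.05 for the sensors and triggers, −0.62 for the output genes, −0.38 for NOD signalling and −0.21 for the inhibitors, beside −0.09 for all genes. Over the 3 stimuli the calls of Panx1, Naip2, Casp8, Il1a, Il1b, Il1rn, Serpinb9, Card19 and Pstpip1 held with each of the 12 arrays left out in turn, and those of Ifi204, Ninj1, Birc2, Birc3, Tab2, Map3k7, Erbin and Trim30a were lost without any of 2 to 11 arrays. With M1 the calls of Panx1, Il1a and Il1b held without each array, those of Casp8, Il1rn and Pstpip1 were lost without 1 array, those of Naip2 and Ripk2 without either of 2, and those of Birc2, Nlrc5, Ifi204, Pkn2, Serpinb1a and Trim30a without any of 3 to 11.

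**Figure D4:**
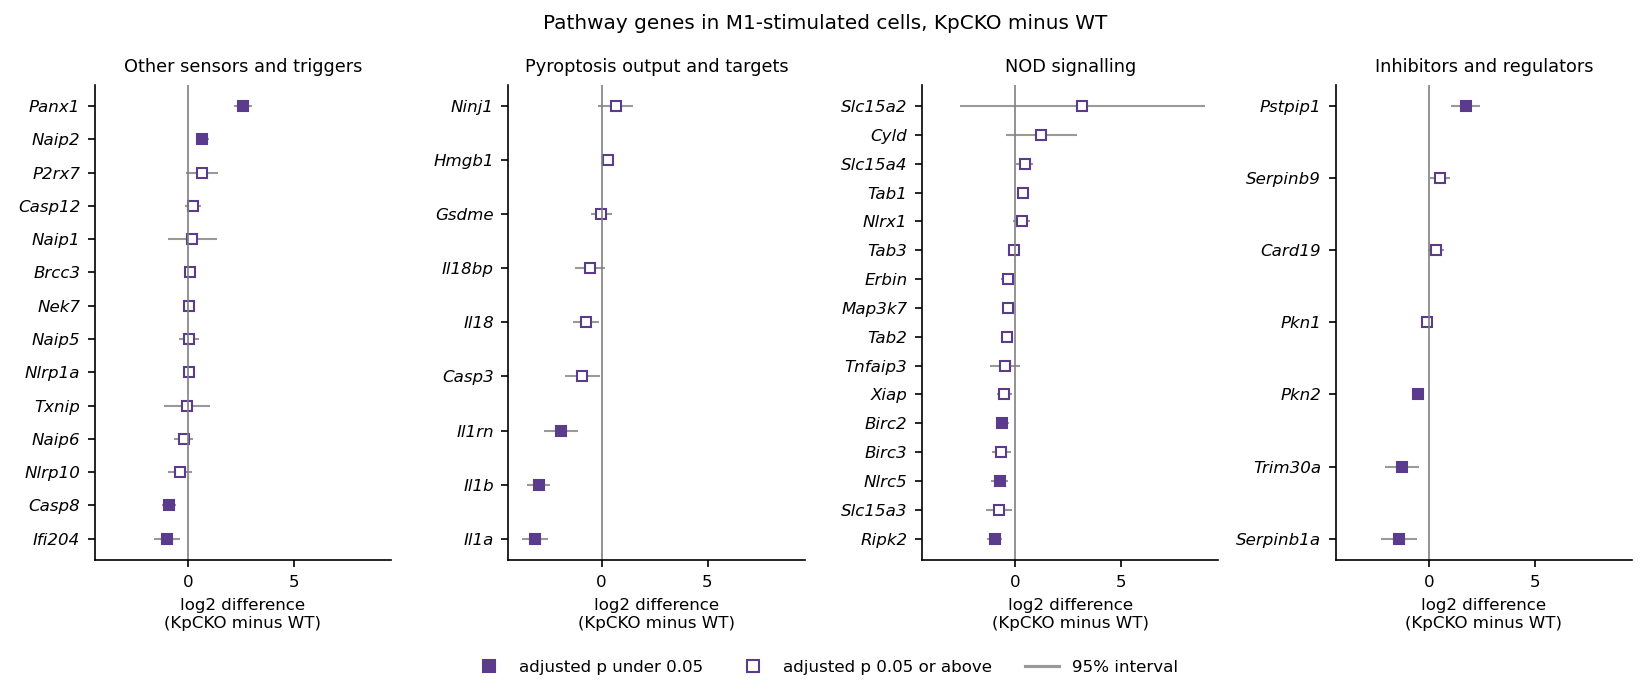
Log2 difference between KpCKO and WT in M1 cells (x axis) for genes tested of the 4 lists, in 4 panels, with bars for the 95% interval and filled symbols where limma's adjusted p was under 0.05. Of the filled symbols, Panx1 at 2.59 and Pstpip1 at 1.74 lie farthest to the right, and Il1a at −3.15 and Il1b at −2.96 farthest to the left.

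Casp4 lies on chromosome 9, as do Casp1, Keap1, Panx1, Birc2 and Birc3, so the genes beside it were read in the same comparison. The windows of 10 tested genes on each side were chosen after the values were seen. Of 17 genes in the window of Casp4, 8 were called between the genotypes over the 3 stimuli, 4 higher and 4 lower in KpCKO, beside 18.6% of the 14634 genes placed on a chromosome, and 5 of them differed more than 2-fold, beside 3.56% of the genes placed. Casp1 and Casp12, which adjoin Casp4 in that order, were not called, at −0.05 and 0.14. The genes that differed more than 2-fold were Pdgfd (−1.51, limma adjusted p = 0.0186), Dcun1d5 (−1.66, adjusted p = 1.79e-05), Mmp12 (3.76, adjusted p = 0.000115), Mmp3 (−1.05, adjusted p = 0.0326) and Mmp8 (2.14, adjusted p = 0.00171). The window of Casp1, which shares most of its genes with that of Casp4, held 9 called genes of 16. Among windows of 20 genes, Nod1 had 6 called, Pycard and Panx1 5 each, Nlrp3 and Nod2 3 each, Gsdmd 2, and Keap1 and Nlrc4 1 each, and that of Mefv had 1 of 11. Between Casp4 and Keap1 lay 80 tested genes, of which 21 were called and 8 differed more than 2-fold. The floxed Keap1 allele is on the same chromosome as Casp4, Panx1, Birc2 and Birc3. As sources of the genotype differences of these genes, loss of Keap1 and any sequence difference carried along with that allele cannot be told apart. The chromosomes of the other called list genes, Pstpip1 among them, are not given here, and the same holds for any on chromosome 9. The genotype of this chromosome was not measured on these arrays.

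**Figure D5:**
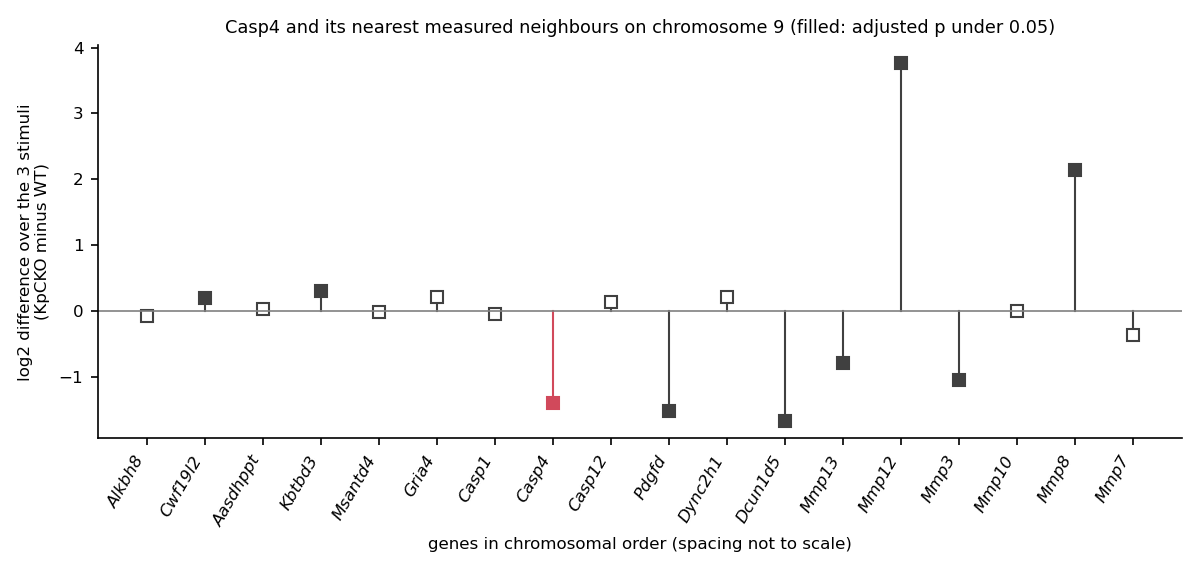
Log2 difference between KpCKO and WT over the 3 stimuli (y axis) for Casp4 and the 17 tested genes beside it on chromosome 9 in their order (x axis, spacing not to scale), with filled symbols where limma's adjusted p was under 0.05. Casp4 stands at −1.39 between Casp1 at −0.05 and Casp12 at 0.14, and Mmp12 at 3.76 and Dcun1d5 at −1.66 are the extremes of the window.

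The genes whose 12 levels ran most like those of each member were sought among the 12109 named genes detected above background 12 times out of 12, with Pearson's r as a description over 12 arrays that share cultures and slides. For Nlrp3 they were Traf1 (r = 0.996) and Ifi205 (0.995). Nod1 had Ifi205 (0.999) and Slco3a1 (0.998) and Nod2 had Cep350 (0.995) and Myo10 (0.993). Mefv had Cflar (0.995) and Nfkbib (0.992), and Casp4 had Zfp263 (0.993) and Ctsc (0.990). Casp1 had Map4 (0.997) and Cers6 (0.997), Gsdmd had Ptpn6 (0.994) and Pola2 (0.992), and Pycard had Plekha2 (0.986) and Nmt2 (0.986). The values for Nlrc4 were lower, with Golgb1 (0.941) and Zc3h13 (0.937).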

How the data were processed

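Labelled RNA of 12 BMDM cultures was hybridised to 1-colour Agilent arrays. The authors extracted 43379 spots an array using Agilent Feature Extraction (version 10.7.3.1). The authors deposited, as linear intensity, the background-subtracted signal with flags for dim and outlying spots, not scaled between arrays. No spot was saturated, and 83 to 292 outlier spots an array were left out. The authors also deposited log2 values, which over 40749 probes matched the log2 intensity less the 75th percentile of the array and centred on each probe (slopes 0.999674 to 1.00037). They were used as an alternative only.

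Here the 75th percentile of an array was subtracted from its log2 intensities. Of 41174 probes, 26690 had a single symbol by accession, and the probe with the highest mean stood for a gene. The genes detected above background by both arrays of any group were tested with limma 3.58.1 in R 4.3.3, in 1 model of 6 groups and culture (5 residual and 1.92 prior degrees of freedom), with the Benjamini-Hochberg adjusted p over all genes held to 0.05. Scripts also used Python 3.11.15, pandas 2.3.3, numpy 2.4.6 and matplotlib 3.10.9, and were tested on simulated data. Exact tests are not given, because 2 arrays set against 2 allow no p below 0.333, and with 2 arrays a group their number limits the precision.

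The series description pairs the arrays by culture. Deviations from the group means correlated between groups of 1 culture at r between 0.268 and 0.724 in 15 pairs of groups. Named genes were all members, Keap1 and Nqo1, the genes of 4 lists that passed a genotype comparison, up to 4 a list with the largest M1 change in WT, and the 2 genes most like each member, while chromosome neighbours were added after values were seen. The members and lists were chosen with earlier results of these data known. Alternatives were other normalization, background correction, filters, floors, probe rules, models and tests, and each array left out. No promoter sequence is given for Gsdmd. Some results of genes in the lists are not reported here.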

Additional observations from a re-analysis of the deposited data

Results flagged for a closer look

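For the 6 results that follow, both cultures went one way in 1 group and the opposite way in the other, and none passed limma's test of the difference itself. The pattern was sought in all 9 members tested, for the M1 and the M2 response, and its share over all genes was not counted. With 2 cultures a group the pattern alone does not show a difference. The changes of Casp1 and Gsdmd were as small as 0.02 and 0.01. Nlrc4 changed with M1 by −0.49 and −0.62 in the WT cultures and by 0.42 and 0.71 in the KpCKO cultures, a difference in the M1 response of 1.12 on the log2 scale (adjusted p = 0.124). Pycard differed between KpCKO and WT by 0.04 and 0.30 in Con and by −0.56 and −0.32 with M1, a difference in the M1 response of −0.61 (adjusted p = 0.182). For the M2 response the adjusted p was 1.0 in each of the other 4. Nlrc4 differed between the genotypes by −0.35 and −0.18 in Con and by 0.36 and 0.07 with M2, a difference in the response of 0.48. Casp1 differed by −0.08 and −0.06 in Con and by 0.14 and 0.02 with M2, a difference of 0.15. Casp4 changed with M2 by −0.35 and −0.33 in WT and by 0.45 and 0.12 in KpCKO, a difference of 0.62. Gsdmd changed with M2 by −0.12 and −0.06 in WT and by 0.04 and 0.01 in KpCKO, a difference of 0.11.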

How the results depend on the processing

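The number of members called depended on the setting mainly where it was small. For M1 against Con it was 9 in both genotypes, 8 in both with normexp or only the groups compared, 7 in KpCKO by the methods' unadjusted t-test, and 4 in WT and 0 in KpCKO by that t-test with Benjamini-Hochberg adjustment. For M2 in WT (2) it was 1 without the replicate block, 1 with normexp, 4 with trended and robust variances, and 0 and 1 by the t-test with and without adjustment. It was 3 with quantile normalization or with only genes above background on all 12 arrays. For M2 in KpCKO (2) it was 1 with no filter on dim probes, without the replicate block, with normexp or by the unadjusted t-test, and 0 with only the groups compared or by the adjusted t-test. For KpCKO against WT in Con (1) it was 0 without the replicate block, with only the groups compared, or by either t-test. With M1 (4) it was 2 with no filter, without the block, with quantile normalization or by the unadjusted t-test, and 0 with normexp, only the groups compared or the adjusted t-test. With M2 (1) it was 0 under each of these. Over the 3 stimuli (3) it was 2 with quantile normalization, with normexp or without the replicate block. Leaving out 1 array gave 8 to 9 for M1 in either genotype, 1 to 2 and 0 to 2 for M2 in WT and KpCKO, 0 to 1 in Con, 1 to 3 with M1, 0 to 1 with M2, 2 to 3 over the 3 stimuli, and 0 to 0 for both differences in response. Where an arm kept 1 array, it was assumed to vary like the other groups. Of all genes, the calls between genotypes were 495 in Con, 3578 with M1, 431 with M2 and 3837 over the 3 stimuli, against 192, 1193, 193 and 1860 without the replicate block, 185, 1064, 242 and 1921 with normexp, and 259, 2621, 236 and 2916 with no filter. Calls for M2 in WT were 3764, against 1715, 1823 and 2367 under those settings. With only the groups compared no gene passed between genotypes within a stimulus. Quantile normalization moved the median of all genes for M1 in WT from 0.13 to −0.08. The member directions called here kept their sign under the alternatives run. The cause of these losses was not tested. Dim probes such as Aim2 limit what the arrays show.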

Other observations

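Slc15a2, a peptide transporter that carries NOD ligands into the cell, was well above background on 9 of 12 arrays and not on the 3 WT arrays of culture 2. Its level in culture 1 was −1.30 in WT Con, −1.07 in KpCKO Con, 0.63 in WT M1, −0.36 in KpCKO M1, −1.37 in WT M2 and −0.69 in KpCKO M2. In culture 2 the KpCKO levels were −1.32, −0.64 and −1.34 in Con, M1 and M2, in the range of culture 1, and the WT levels were −8.57, −7.97 and −8.73. These 3 arrays hold RNA of 1 mouse. The genotype difference over the 3 stimuli did not pass (limma adjusted p = 0.122), and no fold is given for it.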
